A study of Mus musculus with 15 samples.

Results

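Cytosolic ribosomal proteins are the protein components of the ribosome that translates nuclear-encoded mRNA, and the genes described here encode them in mouse heart cells. Genes were chosen by symbol alone: Rpl or Rps followed by a number, with or without a short suffix for a paralog, plus Rplp0, Rplp1, Rplp2 and Rpsa. Ribosomal S6 kinases and rows named as pseudogenes were left out. The rule found 83 of the 13657 genes in the deposited table. Of these, 43 encode large-subunit proteins, 31 encode small-subunit proteins, 3 encode the P stalk and 6 are paralogs of another member. The values that the rule used were names only, so no measured level chose a gene.

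The study measured poly(A) RNA by sequencing in neonatal cardiac myocytes of C57BL/6 mice attached to PDMS, an elastic silicone. It asked whether the response to stretch depends on its axis. Static biaxial stretch was 14% along the primary axis and 3.6% along the orthogonal one, with the primary axis transverse or longitudinal, held for 30 min or 4 h. A single non-stretched group was the control for both durations. The labels name no control matched to each duration, so duration of stretch and time in culture cannot be told apart. Each of the 5 groups had 3 stretch devices, called libraries A, B and C here, which the study's design text counts as biological replicates. The labels name no age in days, sex, transgene or drug, and all groups share the strain and the silicone substrate.

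Ribosomal protein genes are known as one of the most highly and evenly expressed gene groups of any growing cell. Their mRNAs characteristically begin with a C followed by an unbroken run of pyrimidines, the TOP (terminal oligopyrimidine) tract, through which Larp1 and the kinase mTOR govern their translation. In heart muscle, added mechanical load is known to raise protein synthesis and ribosome content during hypertrophic growth. In bulk RNA, fewer cells of a type and less RNA per cell cannot be told apart.

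RefSeq start-site windows for mouse GRCm38.p6, which run from 250 bases before to 50 bases after a start, were found for 61 of the 83 genes, in 73 windows. A TOP start, here a C at the annotated first base followed by at least 4 pyrimidines, stood in 13 of the 73 windows (17.8%), against 2.51% of all 32851 windows in the table. The 30 bases around the start are shown for 8 of these 13 genes because they cover the P stalk, both subunits, genes that rose after 4 h of longitudinal stretch and genes that did not. Each sequence runs 5′ to 3′ on the gene's strand, the start is base 16, and the capitals mark the TOP tract.
Rps15a at chr7:118116133-118116162, minus strand: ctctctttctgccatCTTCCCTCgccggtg
Rps6 at chr4:86857353-86857382, minus strand: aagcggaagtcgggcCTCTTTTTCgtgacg
Rpl35a at chr16:33056467-33056496, plus strand: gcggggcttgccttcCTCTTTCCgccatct
Rpl14 at chr9:120571502-120571531, plus strand: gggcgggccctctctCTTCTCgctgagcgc
Rpl38 at chr11:114668565-114668594, plus strand: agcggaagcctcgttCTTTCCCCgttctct
Rpl15 at chr14:18270972-18271001, minus strand: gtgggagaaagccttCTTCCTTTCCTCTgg
Rplp2 at chr7:141447636-141447665, plus strand: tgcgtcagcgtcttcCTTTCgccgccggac
Rps27 at chr3:90213634-90213663, minus strand: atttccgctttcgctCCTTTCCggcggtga

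The letters CTTTCC, searched on the gene's strand within 25 bases of the start and free to overlap a TOP tract, stood in 11 of the 73 windows (15.1%), against 2.46% of all windows. The letters CCGGAAG, the core bound by ETS factors such as GABP, were searched on either strand of the whole window. They stood in 26 of 73 windows (35.6%), against 8.86% of all windows. Rps25 is shown with that match in capitals because its call after longitudinal stretch was the most stable to leaving out libraries, and Rpl41 because it was among the most highly expressed.
Rps25 at chr9:44407630-44407659, plus strand: cacccattgccCCGGAAGtactctctcgag
Rpl41 at chr10:128549206-128549235, minus strand: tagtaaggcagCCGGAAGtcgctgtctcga
A match describes these letters and was not tested as a binding site.

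The ribosomal protein genes were measured in FPKM (fragments scaled to transcript length and to the mapped fragments of the library). Their summed level ran from 42716 to 51348 FPKM over the 15 libraries, or 9.73% to 11.3% of the FPKM of all genes. Of 11 cardiac myocyte markers, 9 were in the table, none was at 0, and their sum was 16010 to 24919 FPKM per library. Fibroblast markers summed to 2332 to 3036 FPKM and macrophage and leukocyte markers to 349 to 525 FPKM, while none of 5 erythroid markers was in the table. FPKM hold no read counts, so absolute depth is unknown. The commonest ratio of values under 1 FPKM to those of transverse 30 min A gave a relative depth of 0.671 to 1 over the libraries. The lowest, in transverse 30 min B, is uncertain, since 25 genes lay at the commonest ratio and 21 at the next.

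Levels in control myocytes spanned a wide range, but most genes lay close together. The median was 549 FPKM, 68 of the 83 genes averaged between 200 and 1000 FPKM, and 4 averaged above 1000. Rplp1, an acidic protein of the stalk that recruits elongation factors, had the highest level at 1967 ± 144 FPKM (SD, n = 3), which was 4.30% of the summed level. Rpl41, the smallest ribosomal protein, followed at 1586 ± 151 FPKM, and these top levels did not overlap in the control libraries. Rpl38 averaged 1168 ± 105 FPKM and Rpl39, a protein of the nascent-chain exit tunnel, 1124 ± 85.4 FPKM, a difference within their spread. Rps18, of the small-subunit head, was next at 954 ± 64.8 FPKM. The same 4 genes, Rplp1, Rpl41, Rpl38 and Rpl39, led the list in all 5 groups.

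**Figure D1:**
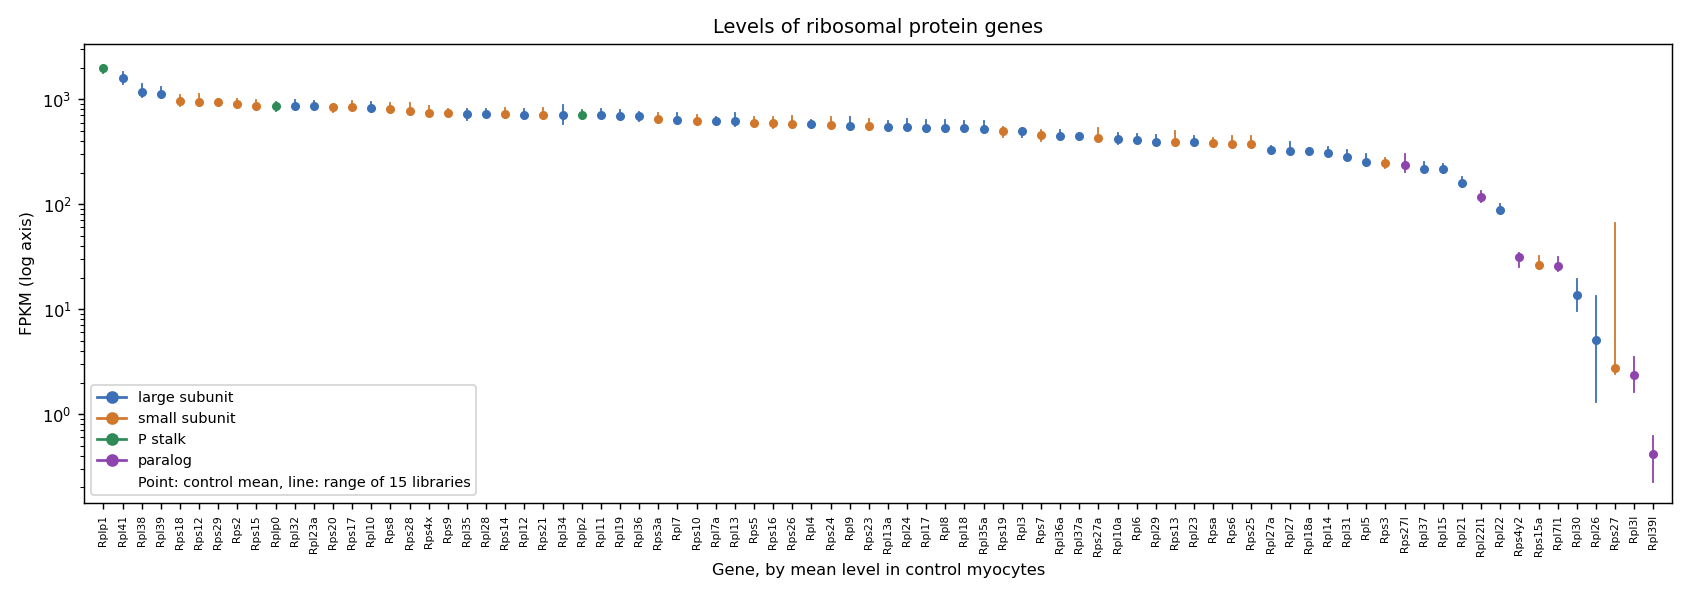
Level of the ribosomal protein genes described here in FPKM on a log axis, ordered by the control mean (points; lines span the lowest to the highest of the 15 libraries) and coloured by role. Most genes lie between 200 and 1000 FPKM, and Rps27 and Rpl26 have the longest lines.

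Within the P stalk, Rplp0, the scaffold on which the acidic proteins sit, averaged 864 ± 83.2 FPKM in control and Rplp2 702 ± 19.0 FPKM. Rpsa, a small-subunit protein also known as a laminin receptor precursor, averaged 385 ± 35.4 FPKM. Several canonical genes were listed far below the rest. Rps15a averaged 26.1 ± 0.839 FPKM, Rpl30 13.6 ± 3.45 FPKM, Rpl26 5.08 ± 3.97 FPKM and Rps27 2.78 ± 0.300 FPKM. Of these, Rps27 has a paralog in the list, Rps27l, at 237 ± 8.56 FPKM.

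RefSeq names at least 1 pseudogene after 63 of the 83 genes, and up to 24 after 1 gene; it names 10 after Rpl30, 8 after Rps15a, 6 after Rpl26 and 2 after Rps27. An entry named Gm12191 is listed with the same span as Rpl30, at chr15:34370261-34373031 in mm9, the build of the deposited table. Genes with other names also share a listed span, such as Cand2 with Rpl32 and Tbc1d8 with Rpl31. A listed span can thus cover several genes and need not be that of the gene named. Gm12191 averaged 553 ± 28.3 FPKM in control where Rpl30 averaged 13.6 FPKM. The sources used here do not say how the authors' counting divided reads among copies, so the levels of genes with such copies are uncertain. The part of copies in the low values was not tested.

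Paralogs were low beside their partners except Rpl22l1 and Rps27l. Rpl3l, the striated-muscle paralog of Rpl3, averaged 2.36 ± 0.644 FPKM in control, against 498 ± 18.3 FPKM for Rpl3, which lies near the peptidyl transferase centre. Rpl39l, known from mouse testis, averaged 0.420 ± 0.126 FPKM and was the only gene under the filter for testing. Rpl7l1 averaged 25.6 ± 0.276 FPKM and Rps4y2, a paralog of Rps4x, 31.1 ± 1.56 FPKM.

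Rpl22l1 exceeded its partner in each library. Rpl22, an RNA-binding protein of the large subunit, averaged 88.5 ± 4.75 FPKM in control and Rpl22l1 117 ± 3.63 FPKM. The ratio of Rpl22l1 to Rpl22 averaged 1.32 ± 0.0546 in control, 1.32 ± 0.0914 in transverse 30 min, 1.36 ± 0.115 in longitudinal 30 min, 1.27 ± 0.0149 in transverse 4 h and 1.24 ± 0.106 in longitudinal 4 h. The ratios of single libraries in each stretch group overlapped those of control, and the ratios were not tested. Rps27l, which p53 induces in human cells, averaged 237 ± 8.56 FPKM in control.

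Summed over the 83 genes, the level was highest after longitudinal stretch for 4 h. The control libraries A, B and C held 43004, 48111 and 46028 FPKM. Longitudinal 4 h libraries held 49242, 49544 and 51348 FPKM, all above the control libraries. The mean was 50045 ± 1139 FPKM against 45714 ± 2568 FPKM in control (SD, n = 3 each), 9.47% higher.

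The other stretch groups overlapped the control. Transverse stretch for 30 min gave 43521, 47600 and 42716 FPKM, longitudinal stretch for 30 min 49884, 45720 and 48656 FPKM, and transverse stretch for 4 h 46449, 48923 and 46690 FPKM. In the order of means, longitudinal 30 min (48086 ± 2139 FPKM) came below longitudinal 4 h, then transverse 4 h (47354 ± 1364 FPKM), control, and transverse 30 min (44612 ± 2618 FPKM), and each of these neighbours overlapped in its libraries.

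The share of all FPKM did not follow that order. It averaged 10.5 ± 0.782% in control and 10.5 ± 0.359% in longitudinal 4 h, since the FPKM summed over all genes was also higher, at 474889 ± 24225 against 437770 ± 9869 FPKM. Transverse 30 min averaged 10.1 ± 0.242%, longitudinal 30 min 10.5 ± 0.517% and transverse 4 h 10.6 ± 0.116%. All stretched libraries lay within the range of the control libraries in this share.

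**Figure D2:**
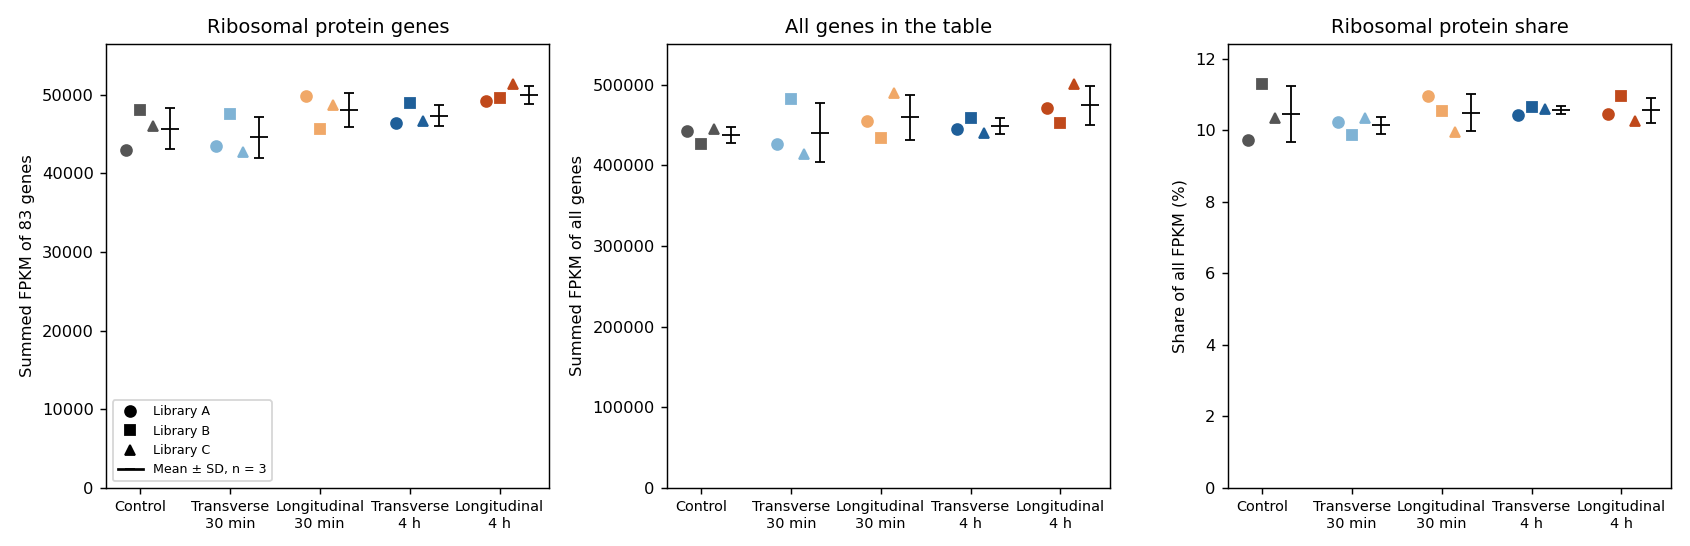
Summed FPKM of the 83 genes, summed FPKM of all 13657 genes, and the share of the first in the second, by library (points) with the mean and SD of 3 libraries beside them; all axes start at 0. The longitudinal 4 h libraries lie above the control libraries in both sums (49242 FPKM and more for the ribosomal protein genes) but not in the share.

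After longitudinal stretch for 4 h, 19 of the 82 ribosomal protein genes tested were higher than in control and none was lower, in a limma fit of log2(FPKM + 1) over all 12114 genes with Benjamini-Hochberg adjustment, called at an adjusted p under 0.05. Of all genes, 10.3% were called higher and 10.4% lower in that comparison; among the 715 genes averaging at least 100 FPKM, 10.9% were called higher and 1.26% lower. The rises were small, 1.12-fold to 1.21-fold, with a median log2 fold change of 0.21 over the 19 genes. Over all 82 genes the median was 0.14, against -0.01 for all genes and 0.09 for genes averaging at least 100 FPKM. The log2 fold change was above 0 for 81 of the 82 genes, compared with 48.2% of all genes and 75.8% of genes at 100 FPKM or more.

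These calls depended on how libraries were scaled. With each library scaled to the same summed FPKM, or quantile normalized, none of the 82 genes was called, 53 and 50 of them lay above 0, and the median over the 82 genes was 0.02 in both. The summed-FPKM scaling moved the median of all genes to -0.11, and the ribosomal protein median stood 0.13 above it, against 0.15 above it with FPKM as deposited and 0.05 after quantile normalization. Leaving out control A, B or C gave 7, 7 or 1 genes called, and leaving out longitudinal 4 h A, B or C gave 6, 7 or 3. In the authors' deposited table none of the 83 genes had a q-value under 0.05 after longitudinal stretch for 4 h (lowest 0.531), where 5.82% of all genes did.

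By role, 9 of 31 small-subunit genes, 9 of 43 large-subunit genes, none of the 3 P-stalk genes and 1 of 5 paralogs tested were called higher. The shares were 10.3% over all genes and 10.9% over genes averaging at least 100 FPKM. A difference between roles was not tested, and the P stalk and the paralogs are too few to show one. Ranges of the groups were separate, with the longitudinal 4 h libraries higher, for 46 of the 82 genes. The same held for 20.9% of all genes and for 200 of the 715 genes averaging at least 100 FPKM. At an unadjusted p under 0.05 there were 34 of the 82 genes, against 37.4% of all genes. Each of the 19 called genes had separate ranges, which a small p with 3 libraries a group favours, so this adds no support to the calls.

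Rps25, a small-subunit protein known for its part in initiation at some viral internal entry sites, had the smallest adjusted p. Its levels were 364, 384 and 373 FPKM in control and 437, 440 and 450 FPKM in longitudinal 4 h. All longitudinal 4 h libraries lay above all control libraries, and its log2 fold change was 0.24 ± 0.05 (SE; limma, adjusted p = 0.0112). Rps25 was also the only gene of the 19 called under each of the 15 omissions of a single library. Its values in transverse 4 h, 391, 401 and 392 FPKM, lay between the groups.

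Rps27a encodes ubiquitin fused to a small-subunit protein. It measured 414, 449 and 425 FPKM in control and 490, 534 and 515 FPKM in longitudinal 4 h, so that its log2 fold change was 0.26 ± 0.06 (limma, adjusted p = 0.0164). Rps15a, whose TOP window is shown above, measured 26.0, 27.0 and 25.3 FPKM in control and 30.1, 32.4 and 30.6 FPKM in longitudinal 4 h, a change of 0.24 (adjusted p = 0.0183). Both genes separated the groups, although Rps27a lay at a far higher level than Rps15a.

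Rps24, a small-subunit protein mutated in some human Diamond-Blackfan anaemia, rose from 549, 588 and 584 FPKM to 662, 678 and 640 FPKM, or by 0.20 on the log2 scale (adjusted p = 0.0203). Rps13 changed by 0.24 (adjusted p = 0.0304) and Rps3a by 0.20 (adjusted p = 0.0314). Rps6, the target of the S6 kinases, rose by 0.19 (adjusted p = 0.0397), from 359, 392 and 379 FPKM to 424, 422 and 444 FPKM. Rps23, of the decoding centre, rose by 0.19 (adjusted p = 0.0378). The small-subunit genes named here as called lay within a narrow band of fold change, whose lower edge is limited by the threshold of the call.

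Small-subunit genes not called included Rps19, also a Diamond-Blackfan anaemia gene, with a log2 fold change of 0.08 ± 0.07 (limma, adjusted p = 0.396), and Rps3, at the mRNA entry channel, with 0.11 ± 0.06 (adjusted p = 0.180). Rps4x gave 0.14 ± 0.05 (adjusted p = 0.0729). Rpsa gave 0.04 ± 0.08 (adjusted p = 0.720), with 347, 417 and 391 FPKM in control and 383, 398 and 405 FPKM in longitudinal 4 h, which overlapped.

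In the large subunit, Rpl5, which with Rpl11 and the 5S RNA can bind the p53 regulator Mdm2, rose from 243, 260 and 249 FPKM to 293, 299 and 295 FPKM. Its log2 fold change was 0.24 ± 0.06 (limma, adjusted p = 0.0235). Rpl23, another Mdm2-binding protein, rose by 0.19 (adjusted p = 0.0447). Rpl11 itself was not called, with a change of 0.15 ± 0.06 (adjusted p = 0.0830), although its libraries did not overlap.

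Rpl24, which bridges the subunits, measured 524, 558 and 535 FPKM in control and 630, 611 and 654 FPKM in longitudinal 4 h, a log2 fold change of 0.23 ± 0.06 (limma, adjusted p = 0.0186). It was already at 608, 606 and 604 FPKM in transverse 4 h, above each control library, with a change of 0.17 that did not pass the test there (adjusted p = 0.367). Rpl35a rose by 0.23 (adjusted p = 0.0265) and Rpl17, near the exit tunnel, by 0.22 (adjusted p = 0.0329). Rpl9 (0.21), Rpl31 (0.19), Rpl7 (0.17) and Rpl14 (0.16) completed the 9 genes, the last with the largest adjusted p of the 19, 0.0451.

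Other large-subunit genes named here did not pass the test. Rpl3 gave 0.03 ± 0.06 (limma, adjusted p = 0.756), Rpl41 0.07 ± 0.09 (adjusted p = 0.571) and Rpl13a, known in human cells as a translational silencer once released from the ribosome, 0.14 ± 0.06 (adjusted p = 0.139). Rpl10, whose loading completes the large subunit, gave 0.16 ± 0.07 (adjusted p = 0.109), and Rpl39 gave 0.14 ± 0.06 (adjusted p = 0.130). The longitudinal 4 h libraries lay above all control libraries for Rpl10 and Rpl13a, and the groups overlapped for Rpl3, Rpl41 and Rpl39.

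None of the P-stalk genes was called. Rplp1 gave 0.02 ± 0.07 (limma, adjusted p = 0.839), Rplp0 0.08 ± 0.07 (adjusted p = 0.420) and Rplp2 0.11 ± 0.07 (adjusted p = 0.257). Rplp1 measured 1804, 2076 and 2019 FPKM in control and 1950, 1962 and 2074 FPKM in longitudinal 4 h, which overlapped throughout.

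Rps27l had the largest log2 fold change of the 19 genes called. It measured 244, 228 and 239 FPKM in control and 304, 272 and 288 FPKM in longitudinal 4 h, a log2 fold change of 0.28 ± 0.08 (limma, adjusted p = 0.0319). It was the paralog called; Rpl7l1 gave 0.18 (adjusted p = 0.0787), Rpl3l 0.13 (0.606), Rpl22l1 0.04 (0.759) and Rps4y2 -0.01 (0.972).

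**Figure D3:**
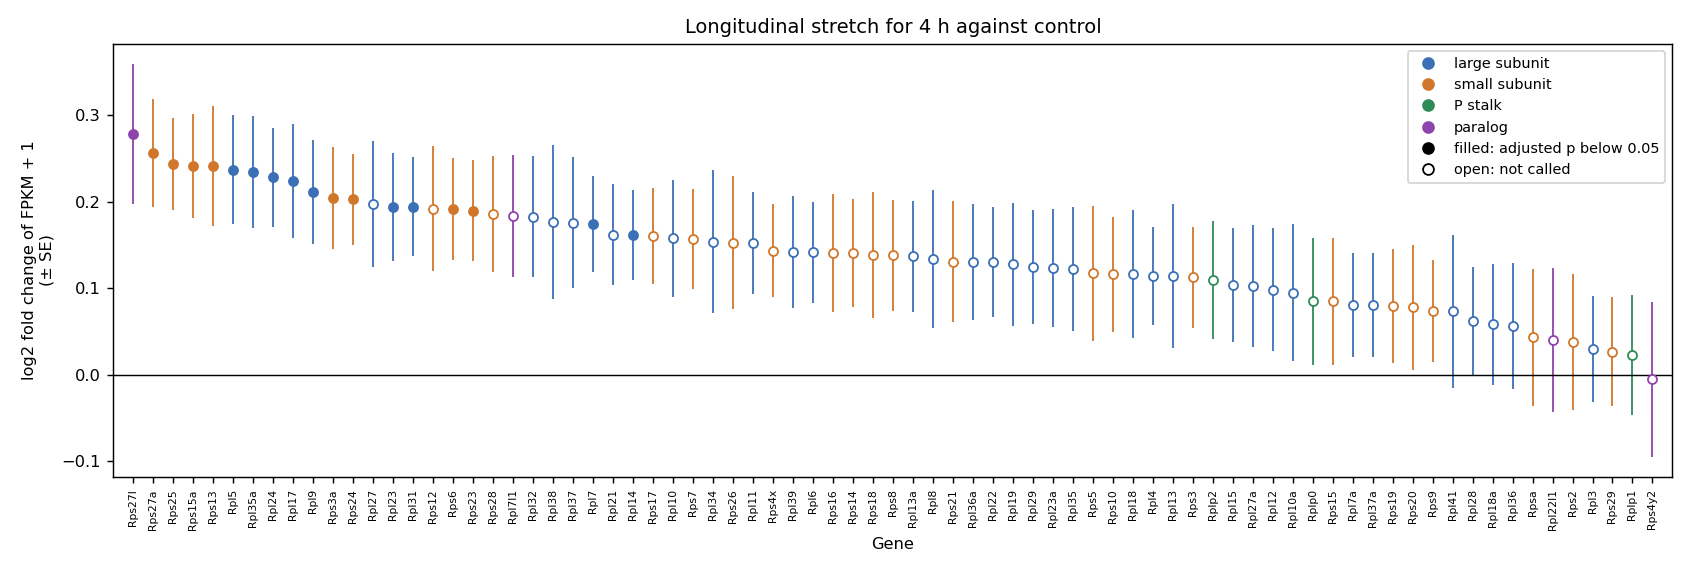
Log2 fold change of FPKM + 1 (± SE) of the ribosomal protein genes after longitudinal stretch for 4 h against control, ordered by size and coloured by role; filled points were called and open points were not. Rps27, Rpl26, Rpl30 and Rpl3l, whose standard errors are far larger, are among the genes not drawn; Rps27l stands highest at 0.28 and Rps4y2 lowest at -0.01.

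The changes after longitudinal 4 h were also set beside the TOP tract at the RefSeq start. Of the 13 genes with one, 4 were called higher (Rps15a, Rps6, Rpl35a and Rpl14) and their median log2 fold change was 0.14. Of the 47 other genes tested that had a window, 10 were called and the median was also 0.14. Of all genes, 10.3% were called higher. A tract was counted only where it began at the annotated first base, so the 47 genes were not shown to lack one. No test of a difference between these 2 sets was made.

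After the other stretches no ribosomal protein gene was called by limma. The share called among all genes in either direction was 0.314% in transverse 30 min, 0.446% in longitudinal 30 min and 0.0578% in transverse 4 h. At an unadjusted p under 0.05 there were 2, 5 and 2 of the 82 genes, against 4.07%, 8.93% and 10.6% of all genes. The fit without trend and robust options also called none, and the authors' deposited table held none with a q-value under 0.05.

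The 3 comparisons share their control libraries with the longitudinal 4 h one, so their directions are given side by side. The median log2 fold change was -0.04 in transverse 30 min, with 13 of 82 genes above 0, against 47.7% of all genes and 39.4% of genes averaging at least 100 FPKM. It was 0.07 in longitudinal 30 min, with 79 genes above 0 (54.4% and 73.8%), and 0.06 in transverse 4 h, with 73 (51.7% and 70.8%). Scaling to the same summed FPKM left 13, 45 and 56 genes above 0, and quantile normalization 26, 21 and 58, so the direction in longitudinal 30 min turned under the latter, to a median of -0.02. Single libraries also weighed on these medians. In transverse 30 min the median was -0.08 without control A, -0.005 without control B, and -0.02, -0.09 and -0.008 without transverse 30 min A, B and C. In longitudinal 30 min it was 0.04 without control A and 0.04 without longitudinal 30 min A, and in transverse 4 h it was 0.02 without control A and 0.09 without control B. Over the 19 genes called after longitudinal 4 h, the medians were -0.04 in transverse 30 min, 0.08 in longitudinal 30 min and 0.09 in transverse 4 h. Their median of 0.21 in longitudinal 4 h was raised by selection, since that comparison chose them, so these medians give no order of the groups.

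Rpl34 was the gene of the large subunit that stood lowest after transverse stretch for 30 min. It measured 711, 710 and 691 FPKM in control and 582, 654 and 600 FPKM in transverse 30 min, which did not overlap. Its log2 fold change was -0.20 ± 0.08, and it did not pass the test after adjustment (limma, unadjusted p = 0.0287). Rpl34 was picked after its values were seen. An entry named Rpl34-ps1, listed with the same span, measured 118, 147 and 142 FPKM in control. In transverse 30 min that entry was higher, at 168, 164 and 167 FPKM. The division of reads between these entries was not tested.

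**Figure D4:**
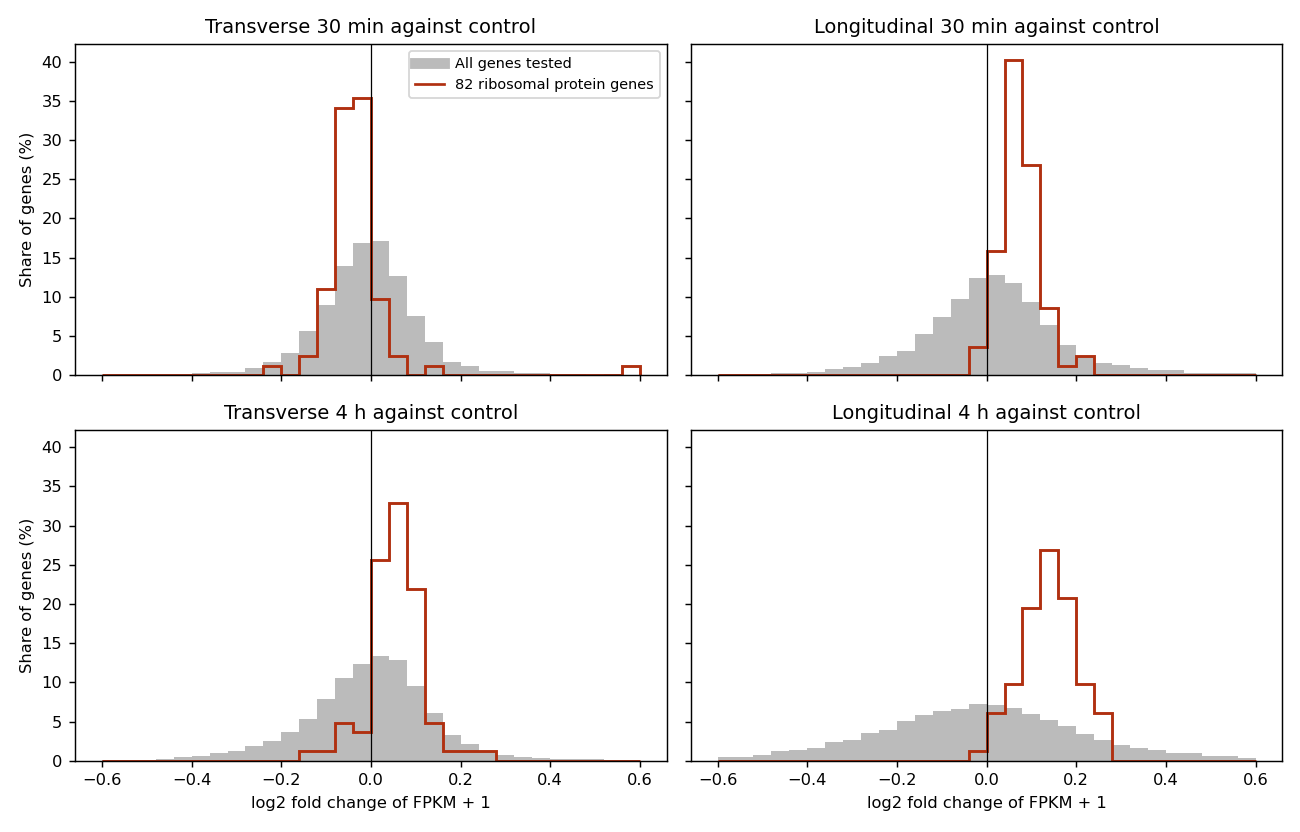
Distribution of log2 fold changes of FPKM + 1 for the 82 ribosomal protein genes (line) and all 12114 genes tested (grey), as a share of genes in percent, in each stretch group against control; values beyond the axis, among them Rps27 in transverse 30 min, are not drawn. The ribosomal protein genes form a narrow peak, with medians of -0.04, 0.07, 0.06 and 0.14 from top left to bottom right.

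Direct comparisons of axis and duration called no ribosomal protein gene. Longitudinal against transverse at 4 h gave a median log2 fold change of 0.08, with 76 of 82 genes above 0 (48.3% of all genes, and 64.9% of those averaging at least 100 FPKM), and 12 genes at an unadjusted p under 0.05 (0.0165% of all genes were called, and 25.7% had an unadjusted p under 0.05). The groups did not overlap, longitudinal higher, for 39 of the 82 genes, against 16.5% of all genes and 180 of the 715 genes averaging at least 100 FPKM. Rps25 differed by 0.16 ± 0.05 (limma, adjusted p = 0.120) and Rpl5 by 0.17 ± 0.06 (adjusted p = 0.148). The rise of the 19 genes in longitudinal 4 h was therefore not shown to differ from that in transverse 4 h. The direction also depended on scaling, with 41 genes above 0 at equal summed FPKM and 34 after quantile normalization.

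At 30 min, longitudinal against transverse gave a median of 0.11, with 81 of 82 genes above 0 (56.7% of all genes, and 83.1% of those averaging at least 100 FPKM). There 13 genes had an unadjusted p under 0.05, against 5.49% of all genes, and 0.0248% of all genes were called. At equal summed FPKM 72 genes were above 0, and after quantile normalization 45 did. Between 4 h and 30 min the median was 0.09 for transverse stretch, with 76 genes above 0 (51.1% of all genes, and 71.9% of those averaging at least 100 FPKM) and 12 at an unadjusted p under 0.05 (12.4% of all genes), where 0.338% of all genes were called. For longitudinal stretch it was 0.07, with 71 genes above 0 (45% and 60.7%) and 10 at an unadjusted p under 0.05 (24.2%), where 4.98% of all genes were called. At equal summed FPKM these medians were 0.06 and 0.02, and after quantile normalization 0.05 and 0.03. Without transverse 30 min B the first was 0.14 and without C 0.06, and without longitudinal 30 min B the second was 0.03. The difference between these time effects (the axis by duration term) had a median of -0.02, with 27 of 82 genes above 0 (42.4% of all genes, and 35% of those averaging at least 100 FPKM) and 1 at an unadjusted p under 0.05 (5.13%), where 0.0248% of all genes were called. Its sign was not stable, with medians of -0.07 to 0.01 as single libraries were left out; it was above 0 without transverse 30 min A or C, longitudinal 30 min A or transverse 4 h B. Under the fit without trend and robust options the count was also 0 in each.

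Individual libraries set the values of a few genes at low level. Rps27, a small-subunit zinc-finger protein, measured 2.99, 2.91 and 2.44 FPKM in control but 3.36, 66.8 and 50.2 FPKM in transverse 30 min A, B and C. In the remaining libraries it lay between 2.52 and 4.02 FPKM. Libraries B and C of that group were thus the only ones above 10 FPKM.

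The log2 fold change of Rps27 in transverse 30 min was 2.71 ± 0.75 and did not pass the test (limma, adjusted p = 0.553). Without transverse 30 min A it was 3.97 and passed (adjusted p = 2.53e-07), and Rps27 was then the gene called in that comparison. The authors' deposited table gave it a log2 fold of 3.93 with a p-value of 0.889. Its paralog Rps27l measured 201, 236 and 221 FPKM in the same libraries and did not share the jump.

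Rpl26, known in human cells to bind p53 mRNA, measured 4.70, 9.22 and 1.31 FPKM in control and reached 13.4 FPKM in longitudinal 30 min C, and each stretch group overlapped the control. Rpl30 ran from 9.55 to 19.2 FPKM, while Gm12191 with the same listed span ran from 527 to 663 FPKM. Gm12191 measured 527, 583 and 549 FPKM in control and 635, 663 and 614 FPKM in longitudinal 4 h. It was called there, with a log2 fold change of 0.21 ± 0.06 (limma, adjusted p = 0.0246), whereas Rpl30 was not, with 0.19 ± 0.24 (adjusted p = 0.600).

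**Figure D5:**
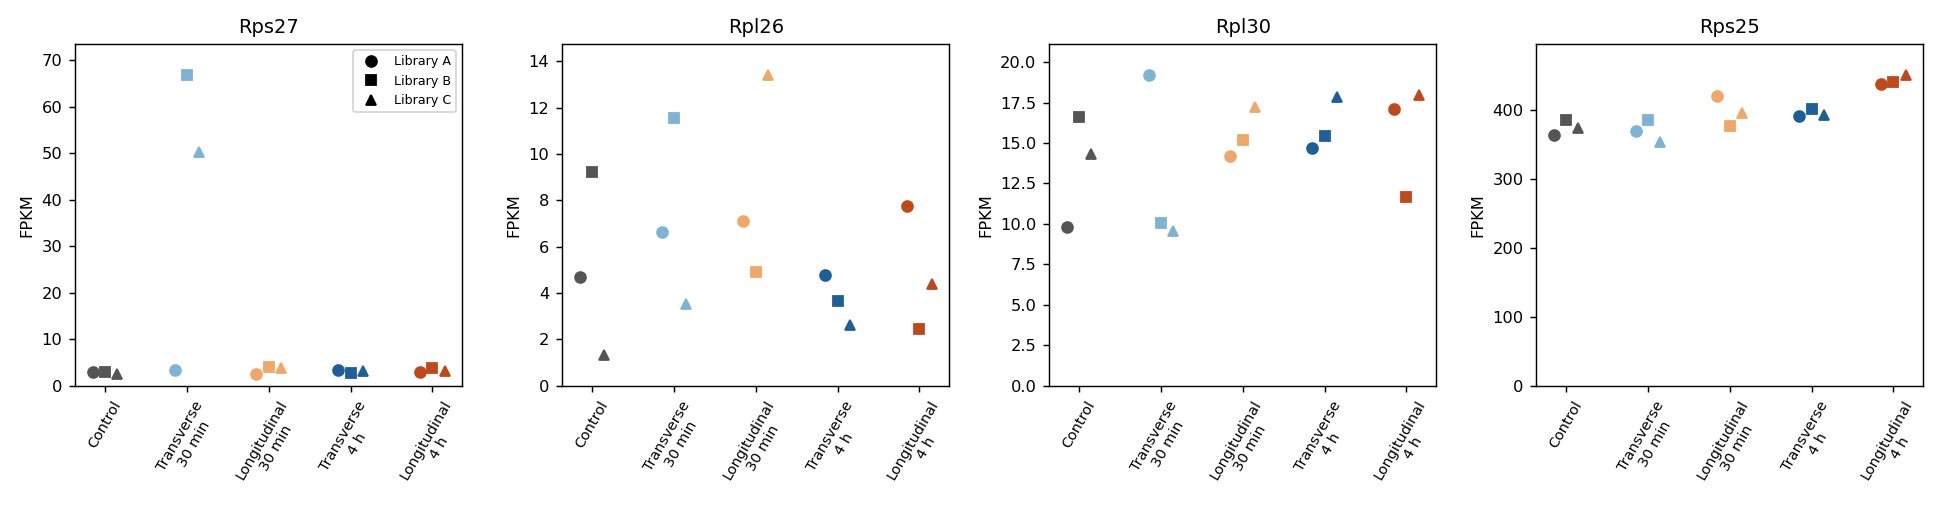
FPKM of Rps27, Rpl26, Rpl30 and Rps25 in each of the 15 libraries; each panel has its own axis from 0. Rps27 is at 66.8 and 50.2 FPKM in transverse 30 min B and C and near 3 FPKM elsewhere, and Rps25 stands highest in the 3 longitudinal 4 h libraries.

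Across the 15 libraries most of these genes moved together. The Pearson correlation of a gene's log2(FPKM + 1) with the mean of the other ribosomal protein genes had a median of 0.850 and was above 0.9 for 22 of the 82 genes. Rpl32, of the large subunit, was highest at 0.972. It was below 0.5 for 5 genes, Rpl30, Rpl26, Rpl22l1, Rpl3l and Rps27, the last at -0.314. The libraries share their scaling, so these values are a description only.

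The SD of a gene between libraries of one group was small, with a median of 0.07 on the log2 scale and values below 0.1 for 73 of the 82 genes. The 4 genes at 0.2 or above were Rps27, Rpl26, Rpl30 and Rpl3l. Outside the list, the genes most like the ribosomal protein mean over the 15 libraries were Nadk (0.94), Naca (0.94), Gnb2l1 (0.93) and Psmb6 (0.93). Among the 100 genes most like that mean, 46 were ribosomal protein genes. Each of those was itself part of the mean, which raises its correlation, so the count is partly built in.

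Small nucleolar RNAs, which guide rRNA modification, are encoded in introns of many ribosomal protein genes. Here, 25 small RNA entries of the table carried the exact span listed for 19 of the 83 genes, and 19 of the 25 were at 0 in at least 1 library. The 10 other entries that overlapped one of the 83 genes, such as Cand2 with Rpl32, also carried its exact span. A shared span is thus not particular to small RNA entries. Within the span listed for Rpl13a, chr7:52380933-52384115 (mm9), Snord34 was listed at 95.3, 163 and 90.9 FPKM in control and at 0.380, 0.352 and 0 in longitudinal 4 h. Snord35a, with the same listed span, was at 0.869, 0.248 and 0 in control and at 81.7, 114 and 68.9 FPKM in longitudinal 4 h.

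Both entries were called after longitudinal 4 h, Snord34 lower and Snord35a higher (limma, adjusted p = 0.0115 and 0.00544), while the host Rpl13a was at 508, 587 and 553 FPKM in control and 596, 599 and 615 FPKM in longitudinal 4 h. Small nucleolar RNAs lack a poly(A) tail, and entries sharing a span cannot be told apart by position. Their values were not used for any ribosomal protein gene, and leaving the small RNA entries out of the fit left the same 19 genes called.

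Related genes were described for context, from lists chosen by function. Fau, Gnb2l1 and Rpl36al encode cytosolic ribosomal proteins that the naming rule misses, and none of them was called after longitudinal 4 h. Their log2 fold changes were 0.08 for Fau, 0.08 for Gnb2l1 and 0.25 for Rpl36al (limma, adjusted p = 0.361, 0.435 and 0.0683). Of 17 other genes with TOP mRNAs, 3 were called higher and none lower, against 10.3% of all genes called higher: Btf3 of the nascent-chain complex by 0.25, Hnrnpa1, a splicing regulator, by 0.42, and Eif3e of initiation factor eIF3 by 0.22. Their median was 0.13.

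Initiation factors had 13 of 33 genes called higher and none lower, with a median of 0.18, against 10.3% of all genes. Eif1a, which acts in start-site scanning, had a log2 fold change of 0.82 ± 0.12 (limma, adjusted p = 0.00438), Eif2b3 of the eIF2 exchange factor 0.49, Eif4e, the cap-binding protein, 0.39 and Eif5 0.41. Escorts and assembly factors of ribosomal proteins had 5 of 14 called higher and none lower, with a median of 0.28, against the same 10.3% of all genes called higher; Brix1 changed by 0.43, Ltv1 by 0.45, Bccip by 0.27 and Rpf2 by 0.42.

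In the TOR and S6 kinase list, 5 of 17 genes were called higher and 2 lower, against 10.3% and 10.4% of all genes. The list as a whole did not rise: its median was -0.10, with 8 genes above 0 and 9 below, the lowest at -0.73. The genes of this list named next are risers only. Larp4 rose by 0.29, the kinase gene Rps6ka3 by 0.46, and Larp1, the TOP-binding repressor, by 0.32 (limma, adjusted p = 0.0184). Rheb, which activates mTOR, rose by 0.38. Mitochondrial ribosomal proteins, which translate mitochondrial mRNA, had 2 of 76 called higher and 7 lower, shares below those of all genes (10.3% and 10.4%), with a median of -0.02; Mrpl49 fell by 0.57, Mrps35 by 0.36 and Mrpl18 by 0.25, while Mrpl48 rose by 0.22.

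Markers of other cell types were summed in the same groups. Smooth muscle markers (5 of 5 in the table, none at 0) summed to 465 to 792 FPKM in control and 897 to 1527 FPKM in longitudinal 4 h, which did not overlap. Of the 5, 1 (Smtn) was called higher, against 10.3% of all genes. Their sums were 396 to 1256 FPKM in transverse 30 min, 774 to 1574 FPKM in longitudinal 30 min and 457 to 806 FPKM in transverse 4 h. Each of these overlapped the control. Macrophage and leukocyte markers (9 of 10 in the table) summed to 349 to 502 FPKM in control and 464 to 525 FPKM in longitudinal 4 h, which overlapped. By limma 0 of the 9 were called, against 10.3% of all genes called higher and 10.4% lower. At an unadjusted p under 0.05 there were also 0, against 37.4% of all genes. The part of these cell types in the rise of the ribosomal protein genes was not tested.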

How the data were processed

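Poly(A) RNA of 15 libraries (5 groups of 3) was measured with an Illumina TruSeq kit that does not mark strand, per the labels' protocols. The authors deposited 1 table for all libraries with FPKM per gene and library and, per the file headers, log2 fold, p-value and q-value columns comparing each stretch group with control; their test was not given in the sources used here. Per the submitters' processing notes, the tools include FastQC, TopHat 1.4.1 and Cufflinks 2.0.2 and the build is mm9. FPKM are not scaled to a common total, and fold changes on log2(FPKM + 1) understate those of low genes. Starts in the table count from 0 (end minus start equalled the RefSeq length for 3165 of 12208 genes compared, and was 1 less for 303), so 1 was added.

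Tests used limma 3.58.1 in R 4.3.3 with trend and robust options, on genes with at least 1 FPKM in at least 3 libraries (12114), 1 fit of 5 group means with 10 residual degrees of freedom, two-sided p-values, Benjamini-Hochberg adjustment over all genes and 9 comparisons. The script was tested on simulated data. Figures used matplotlib 3.10.9. The genes and lists were chosen with earlier results of these data known. Named genes were up to 10 called per direction by size, the 5 highest and lowest control levels, a fixed set of well-studied genes, genes with a library over 1 apart on the log2 scale, and up to 4 genes of smallest p per related list; other genes called are named without that rule. Alternatives changed the pseudocount, filter, scaling, libraries in the fit, test options and replicate letters. Some genes are not reported here by name and are not drawn singly in the figures; they remain in the counts and sums.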

Additional observations from a re-analysis of the deposited data

How the results depend on the processing

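For the ribosomal protein genes called after longitudinal stretch for 4 h (19), the count was 0 with quantile normalization, 0 with libraries scaled to the same summed FPKM and 6 when only the groups compared entered the fit. Pseudocounts of 0.1 and 5, no filter, a filter on a mean of at least 5 FPKM, no trend and robust options, and leaving out small RNA entries (an alternative chosen after seeing the data) kept the same 19 genes; scaling to the same median gave 20, with those 19 among them. Leaving out 1 library at a time gave 1 to 25. It gave 0 to 1 in transverse 30 min against control, in longitudinal against transverse at 30 min, in 4 h against 30 min of the transverse axis and in the interaction, the 1 each time without transverse 30 min A, and 0 in the remaining comparisons. With the letters A, B and C as a replicate block, 11 genes were called, each among the 19. Deviations from group means correlated above 0.1 in 10 of 30 same-letter pairs of libraries (median -0.0965, range -0.825 to 0.722). For different letters the median was 0.0865 and the highest 0.830, between transverse 30 min B and longitudinal 30 min C. Deviations sum to 0 over the 3 libraries of a group, so the 2 medians are not independent. The letters were not taken to pair the libraries, and what the strongly correlated pairs share was not tested. The cause of these changes was not tested; scaling to the same summed FPKM by construction divides by the total, which was higher in longitudinal 4 h.

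The summed level without Rplp1 was 45398 FPKM in transverse 4 h and 48049 FPKM in longitudinal 4 h, and the share of all FPKM without small RNA entries in the total was 10.6% in transverse 30 min, 11.1% in transverse 4 h and 11.1% in longitudinal 4 h. Among genes called, 0 changed direction under an alternative, and Rps27 passed the threshold newly without transverse 30 min A. The median over the 82 genes, which has no test, changed sign in 6 of 226 cases: under quantile normalization in longitudinal 30 min against control (-0.02) and in longitudinal against transverse at 4 h (-0.02), and in the interaction in 4 of the 15 omissions of a library. FPKM give no depth, so counting error is unknown, and 3 libraries a group limit the test to changes well above their spread.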
